A study of Homo sapiens with 2 samples.

Results

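Regions bound by DEK inside long non-coding RNA (lncRNA) genes are described here: 1064 regions, or 8.54% of the 12456 regions of chromosomes 1 to 22 in which peaks of both replicates overlapped by at least 1 bp. A region belongs to the set when the summit of its replicate 1 peak (the one of highest fold enrichment, where there are several) lies in the span of a RefSeq gene of biotype lncRNA and more than 1 kb outside every RefSeq protein-coding gene. DEK was measured by ChIP-seq in 786-O, an established line of clear cell renal carcinoma without functional VHL. Both samples, replicate 1 and replicate 2 of 1 group, carry the label negative control with genotype WT, the antibody entry DEK and a description that names Cas9, and both were grown in serum-containing medium with antibiotics. The labels do not say whether the replicates came from separate cultures, nor what the words negative control describe. No DEK-edited cells, input or other antibody were analysed here, so no contrast between conditions was tested.

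LncRNA genes are transcribed into RNAs that are not translated. Some act on neighbouring genes or as scaffolds for chromatin proteins, some carry microRNAs or small nucleolar RNAs in their transcripts, and for many no function is known. DEK is an abundant chromatin protein that binds DNA and histones, takes part in the handling of histone H3.3 and is often raised in cancers. The parent genes in this set include PVT1, which lies beside MYC and is gained with it in tumours, CYTOR, an RNA raised in many carcinomas, and MIR155HG, the precursor of miR-155.

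The sequence under the regions could be read only where a region met the start of its own lncRNA gene, in windows that run from 250 bases before to 50 bases after an annotated start (RefSeq, GRCh38.p14). Of the 863 lncRNA genes that held a region, 582 had such a window, and 40 regions overlapped one. The stretches under the 6 highest-ranked of these 40 are shown because they are the sequences of lncRNA starts with most signal that a window covers. Stronger regions lay just outside a window, among them those of FAM230F and FAM230H described below. Rank is the mean percentile of fold enrichment in both replicates among all shared regions. They lie at chr2:740636-740855 (+ strand, LOC105373480), chr12:45727872-45728031 (- strand, LINC00938), chr22:20338663-20338897 (+ strand, FAM230G), chr7:53398612-53398911 (- strand, LOC105375282), chr21:5710123-5710326 (- strand, LOC124904990) and chr5:61917296-61917539 (- strand, LOC105378998). Capitals mark matches to 1 of 8 short motifs named below, on either strand, and in LOC124904990 a CCAAT match and a GC box overlap.
LOC105373480: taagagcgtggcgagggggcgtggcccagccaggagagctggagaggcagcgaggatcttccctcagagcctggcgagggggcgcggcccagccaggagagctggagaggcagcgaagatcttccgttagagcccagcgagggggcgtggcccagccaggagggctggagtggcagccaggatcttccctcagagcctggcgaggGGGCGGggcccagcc
LINC00938: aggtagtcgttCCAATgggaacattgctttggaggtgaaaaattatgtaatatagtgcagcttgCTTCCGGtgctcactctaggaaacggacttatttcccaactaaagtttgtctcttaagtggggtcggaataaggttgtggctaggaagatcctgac
FAM230G: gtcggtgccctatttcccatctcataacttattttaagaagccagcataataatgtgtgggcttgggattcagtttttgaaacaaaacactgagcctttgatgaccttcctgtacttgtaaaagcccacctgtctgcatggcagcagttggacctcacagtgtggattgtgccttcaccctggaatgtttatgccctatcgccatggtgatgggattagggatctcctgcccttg
LOC105375282: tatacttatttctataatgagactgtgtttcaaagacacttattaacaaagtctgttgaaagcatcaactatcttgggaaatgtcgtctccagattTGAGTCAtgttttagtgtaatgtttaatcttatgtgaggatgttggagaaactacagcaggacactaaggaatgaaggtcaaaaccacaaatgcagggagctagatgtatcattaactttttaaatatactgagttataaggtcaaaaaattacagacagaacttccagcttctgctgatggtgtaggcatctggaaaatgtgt
LOC124904990: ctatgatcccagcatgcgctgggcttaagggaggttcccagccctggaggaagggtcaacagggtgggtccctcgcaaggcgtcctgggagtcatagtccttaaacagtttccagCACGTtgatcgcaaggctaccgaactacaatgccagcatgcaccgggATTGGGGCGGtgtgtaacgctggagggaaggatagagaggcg
LOC105378998: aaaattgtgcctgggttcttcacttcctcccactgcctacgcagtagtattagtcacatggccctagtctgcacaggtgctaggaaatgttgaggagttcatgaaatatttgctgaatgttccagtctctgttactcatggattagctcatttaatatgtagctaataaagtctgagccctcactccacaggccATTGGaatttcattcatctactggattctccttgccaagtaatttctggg

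These 6 stretches differed widely in composition. That of LOC105373480 was 70.9% G and C with 13 CpG dinucleotides and is a tandem repeat, in which 88.5% of the bases equal the base 63 positions further on. That of LOC105375282 was 35% G and C with 1 CpG, that of LINC00938 43.8% with 4, and that of FAM230G 46.8% with 2. LOC124904990 had 58.3% with 10 CpG, and LOC105378998 43.0% with 1. Over all 40 windows the median was 46.3% G and C with 3 CpG, against 50% with 5 CpG in all 12569 lncRNA windows. Only 7119 lncRNA windows are clear of protein-coding genes, so the 12569 are not matched to the 40 in location. Whether the difference in composition goes beyond the location rule was not tested. The fold enrichment that the authors' peak caller gave at the summit, relative to the caller's estimate of background, was 6.83 and 5.96 at LOC105373480 in replicates 1 and 2 (mean 6.39 ± 0.613), 5.42 and 6.14 at LINC00938 (5.78 ± 0.514) and 4.83 and 6.15 at FAM230G (5.49 ± 0.932; SD, n = 2 for each). It was 5.72 and 4.69 at LOC105375282, 4.79 and 5.17 at LOC124904990 and 4.48 and 5.64 at LOC105378998. Replicate 2 was the higher one at 4 of the 6, so neither library led throughout.

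The AP-1 site, the sequence bound by FOS and JUN dimers, was the motif whose share differed most between windows under a region and windows under none, in relative terms. Its letters, TGANTCA, occurred in 12 of the 40 start windows under a region (30%, 95% Wilson interval 18.1 to 45.4). They occurred in 11.7% (10.9 to 12.5) of the 6996 lncRNA start windows clear of protein-coding genes that no shared region touched. A second set of 80 lncRNA windows, touched by a shared region that was not a member of the window's own gene, had it in 35 (43.8%, 33.4 to 54.7). Such a region can belong to the set through another gene. The CYTOR region (chr2:87455103-87455530) reaches past the NCAL1 start at chr2:87455479, so the 40 and the 80 windows can hold the same bases. At protein-coding genes, 81 windows under a shared region had it (10.3%, 8.37 to 12.6), against 5.92% (5.61 to 6.26) of 20255 windows under none. In all 33725 windows of chromosomes 1 to 22 the share was 7.67%. These are counts over windows, which are not replicates, and no test was made.

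All 15 AP-1 matches in the 40 windows lay inside the DEK region. Their distance from the summit was not the same in both libraries: the median was 47 bp from the replicate 1 summit, with 9 within 50 bp, and 115 bp from the replicate 2 summit, with 3 within 50 bp. The 12 matches of ACGTG, the core of the hypoxia response element, went the other way, with medians of 134.5 and 54.5 bp in replicates 1 and 2. The 11 matches of the GC box GGGCGG had 104 and 115 bp, and the 26 of CCAAT, of which 16 were inside the region, 237 and 267.5 bp. No motif can be placed nearest the summit from these libraries, since the order differs between them. The sites outside the stretches above are printed to show the core, in capitals, with its neighbouring bases, 1 site for each gene in the order of rank and in the direction of transcription. They lie at chr7:115231343-115231373 (- strand, LINC01392), chr3:58471291-58471321 (+ strand, LOC107986092), chr14:51328379-51328409 (- strand, LINC00519), chr1:209542894-209542924 (- strand, LOC105372898), chr2:237298850-237298880 (- strand, LOC105373954), chr1:212234782-212234812 (- strand, LINC02608), chr7:54996157-54996187 (- strand, LOC105375284), chr7:155962462-155962492 (+ strand, LOC389602), chr11:69166684-69166714 (+ strand, LOC105369366), chr10:4671480-4671510 (+ strand, LOC105376373) and chr2:87455396-87455426 (+ strand, CYTOR).
LINC01392: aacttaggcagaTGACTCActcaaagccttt
LOC107986092: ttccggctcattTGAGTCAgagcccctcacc
LINC00519: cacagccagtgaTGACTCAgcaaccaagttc
LOC105372898: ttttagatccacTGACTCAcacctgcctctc
LOC105373954: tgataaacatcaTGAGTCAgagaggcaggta
LINC02608: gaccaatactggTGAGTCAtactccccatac
LOC105375284: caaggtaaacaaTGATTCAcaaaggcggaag
LOC389602: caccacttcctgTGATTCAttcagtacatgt
LOC105369366: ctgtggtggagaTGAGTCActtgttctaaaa
LOC105376373: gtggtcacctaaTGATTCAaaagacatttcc
CYTOR: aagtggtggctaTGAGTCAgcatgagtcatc

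The pair of sites at LINC01392 lay near both summits, the printed one 39 and 7 bp from those of replicates 1 and 2 and the other 7 and 25 bp. The site at LOC105373954 was 46 and 10 bp away, that at LINC02608 14 and 76 bp, and that at LOC389602 15 and 53 bp. At LINC01392 the fold enrichment was 4.52 and 5.32 in replicates 1 and 2, and at LINC02608 3.82 and 4.11. At CYTOR a pair of AP-1 sites, 39 and 29 bp from the replicate 1 summit and 115 and 125 bp from that of replicate 2, lay in a region of 3.20 and 3.70. That region had a mean percentile of 20.7 only, so an AP-1 match did not go with a high rank there. The pair at LINC01392 had 1 site each side of the annotated start, at -3 and +29. CCAAT was present in 20 of the 40 windows (50%) against 36.7% of the windows under no region, the GC box in 8 (20% against 15.2%), ACGTG in 9 (22.5% against 16.9%), TATAAA in 6 (15% against 18.7%), the core of the cyclic AMP response element, TGACGT, in 2 (5.00% against 5.19%), CACGTG, the E-box of MYC and USF, in 2 (5.00% against 4.60%) and the ETS core CCGGAAG in 1 (2.5% against 3.86%). The 95% intervals of the 40 windows held the value of the untouched windows for each of these 7 motifs, though the palindromic CACGTG also holds ACGTG, so these counts overlap.

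**Figure D1:**
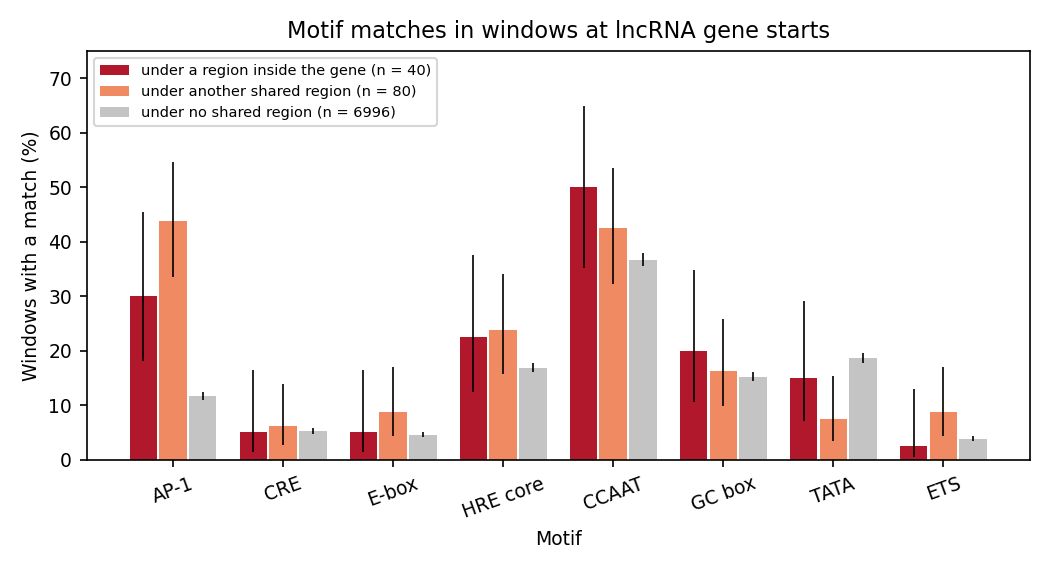
Share of lncRNA start windows with a match to each of 8 motifs, in percent, for windows under a region inside the gene (n = 40), under another shared region (n = 80) and under no shared region (n = 6996), with 95% Wilson intervals as bars. The AP-1 shares are 30%, 43.8% and 11.7%.

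As a group the regions inside lncRNA genes were of ordinary strength. Median fold enrichment was 4.13 and 4.14 in replicates 1 and 2, with quartiles of 3.70 to 4.69 and 3.65 to 4.69, against 4.10 and 4.09 over all shared regions. Regions outside both kinds of gene had 4.30 and 4.27, and those inside protein-coding genes 3.99 and 3.98. The spread within the set, 2.12 to 14.5 in replicate 1 and 2.19 to 14.8 in replicate 2, was far larger than these gaps between medians. A −log10 q of at least 5 in both replicates was reached by 392 of the 1064 (36.8%, 95% Wilson interval 34.0 to 39.8), where 38.7% of all shared regions reached it, so the set was near that background. A fold enrichment of at least 5 in both was reached by 81 (7.61%, 6.17 to 9.36), where 10.3% of all shared regions and 18.9% (17.7 to 20.2) of those outside both kinds of gene did. At least 10-fold in both was reached by 4 of the 1064 and by 108 of all 12456 shared regions. Of these 108, 97 were among the 3815 outside both kinds of gene and 7 among the 6901 inside protein-coding genes. No test of these differences was made, since regions are not replicates.

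Each value rests on few fragments. The number of fragments stacked at the summit (the pileup) was solved from the values the authors deposited. Its medians inside lncRNA genes were 20 and 21 in replicates 1 and 2, against 21 and 22 over all shared regions. The solved background had a median of 3.93 and 4.25 fragments, against 4.22 and 4.55. Within the set, fold enrichment was lower where the background was higher: the 25% of shared regions with the lowest background held 296 of the 1064, with medians of 4.43 and 4.43, and the 25% with the highest held 217, with 3.6 and 3.62. Over all shared regions the medians were 4.62 and 4.55 at the lowest background, and 3.52 and 3.51 at the highest. Fold enrichment and solved background are not independent values. Background was solved from fold enrichment and stands in its denominator, so the trend is no separate result about the regions. The part of background in the ranking of regions was not tested.

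The replicates called many lncRNA-gene peaks apart. Replicate 1 had 1631 peaks with a summit that met the location rule, and 1082 of these (66.3%, 95% Wilson interval 64.0 to 68.6) were overlapped by a replicate 2 peak, where 67.9% of all replicate 1 peaks were. Replicate 2 had 2180 such peaks, and 1091 (50%, 47.9 to 52.1) were overlapped by one of replicate 1, where 52.3% of all were. With all peaks of a library ranked by −log10 q, those inside lncRNA genes overlapped least in the lowest 25%: 43.9% (39.3 to 48.7) of those of replicate 1 and 24.6% (21.2 to 28.2) of those of replicate 2 were shared. In the highest 25% the shares were 91.6% (88.3 to 94.0) and 86.3% (82.9 to 89.1). Peaks of all locations had nearly the same gradient. Their shares in replicates 1 and 2 were 46.5% and 27.3% in the lowest 25%, and 92.4% and 84.5% in the highest. Across the 1064 regions the Spearman coefficient of fold enrichment between replicates was 0.527, against 0.621 over all shared regions, and that of the pileup was 0.805, against 0.813. These describe regions of the same 2 libraries and carry no p. The median absolute log2 ratio between replicates was 0.17, the same as over all shared regions at 2 decimals, and replicate 2 was higher in 534 of the 1064.

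**Figure D2:**
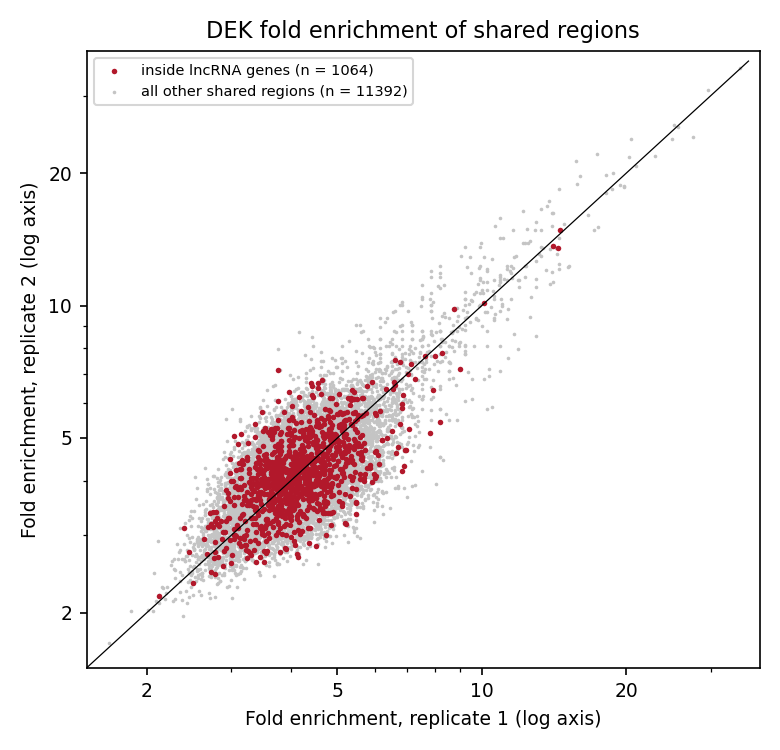
Fold enrichment of each shared region in replicate 1 (x, log axis) and replicate 2 (y, log axis), with the 1064 regions inside lncRNA genes in red and all other shared regions in grey, and a line of equality. Most regions inside lncRNA genes sit near 4-fold in both libraries, and 4 lie above 10-fold in both.

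The strongest regions were in the FAM230 family, lncRNA genes repeated in the segmental duplications of 22q11 and on chromosome 13. The first was a region of 499 bp in FAM230F (chr22:18896136-18896634), 279 bp inside the annotated start, with 14.5 in replicate 1 and 14.8 in replicate 2 (mean 14.7 ± 0.226). FAM230C on chromosome 13 (chr13:18211732-18212559) followed with 14.1 and 13.7 (13.9 ± 0.280), 16.8 kb from its start, and FAM230D (chr22:18205307-18205934) with 14.4 and 13.5 (13.9 ± 0.646; SD, n = 2 for each). All 3 were far above the median of the set in both replicates. In FAM230H, regions of 8.75 and 9.81 (chr22:21326112-21326395) and of 7.02 and 7.0 lay 400 bp and 1.25 kb from the start, and another had 5.48 and 5.16. FAM230F had a further region of 8.24 and 7.82, and FAM230C, FAM230G and FAM230B had 3.48 and 3.94, 4.83 and 6.15, and 4.78 and 4.04.

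In all, 6 of the 10 FAM230 genes held 10 of the regions, and FAM230A, FAM230E, FAM230I and FAM230J held none. The family was singled out after its values were seen. Start windows could be compared for 7 of the 10 genes, not for FAM230A, FAM230D and FAM230J. Those of FAM230G and FAM230B are identical in 297 of 300 bases (99%), the closest pair, and those of FAM230G and FAM230H in 288. The 3 windows of FAM230F matched those of the other genes on chromosome 22 in 239 to 283 bases (79.7% to 94.3%), and that of FAM230C matched the others in 139 to 158 (46.3% to 52.7%). The windows do not cover the strongest regions of the family, so how alike the copies are there, FAM230C included, is unknown. Where copies are close, reads may have been assigned to either one, so the division of the signal among the family's genes is uncertain. The solved background also differed within the family, at 15.1 and 16.1 fragments in the strongest FAM230C region against 2.33 and 2.71 in that of FAM230D, with pileups of 225 and 232 against 47 and 49.

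Other regions among the 15 highest lay mostly in lncRNA genes with placeholder LOC symbols. LOC101929823 (chr17:117133-118083) had 10.1 in both replicates (10.1 ± 0.0144; SD, n = 2) and lay 19.6 kb from the nearest protein-coding gene in the table, SCGB1C2. LOC102724701 on chromosome 21 had 7.97 and 7.68, LOC105376360 on chromosome 10 had 9.02 and 7.18, and FAM157C near the end of the long arm of chromosome 16 had 7.6 and 7.68. LOC105375805 (7.13 and 7.37) and LOC101927506 (6.76 and 7.44) lay on chromosome 8, 4.55 kb from ZNF34 and 31.8 kb from LOC124905357. LOC101927960 on chromosome 2 had 7.26 and 6.79 in a region of 206 bp. LOC124902298, 23.1 kb from WDR5, which encodes a shared subunit of histone H3 lysine 4 methyltransferase complexes, had 6.59 and 7.51. LOC102723834, 46.6 kb from ENAH, the gene of an actin regulator, had 7.92 and 6.43, the second-widest gap between replicates among these 15 after LOC105376360. Every 1 of the 15 stood above the upper quartile of the set in both replicates, which the ranking itself ensures.

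**Figure D3:**
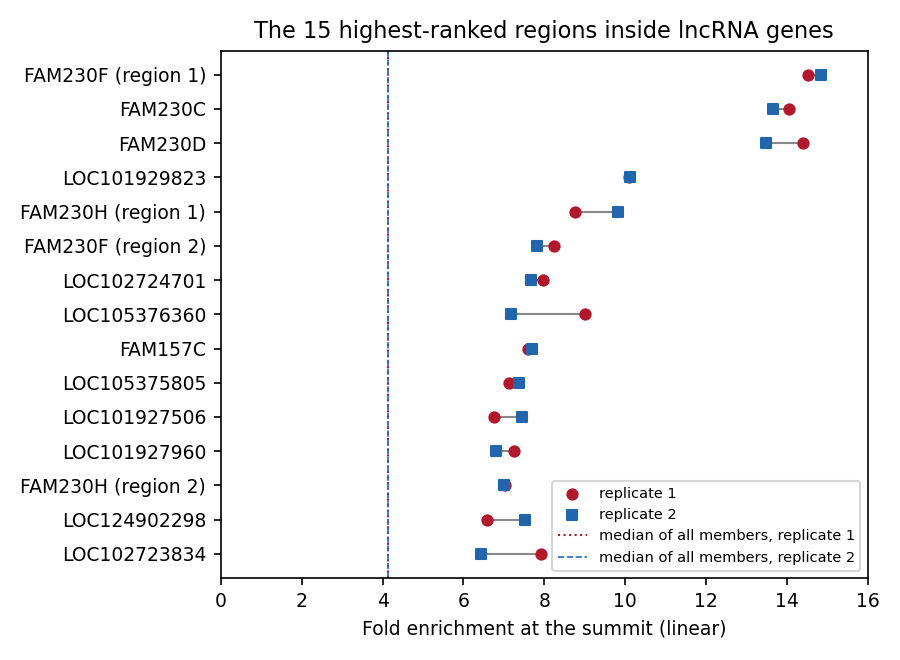
Fold enrichment in replicate 1 (red circles) and replicate 2 (blue squares) of the 15 highest-ranked regions, on a linear axis from 0, with the medians of all 1064 regions as vertical lines at 4.13 and 4.14. The first 4 regions lie above 10-fold in both replicates, and FAM230F leads with 14.5 and 14.8.

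PVT1 held more regions than any other lncRNA gene, 19 of the 1064 in a span of 307 kb on chromosome 8 (6.19 per 100 kb). They were spread from 15.3 to 241 kb from the end of lower coordinate, with gaps of 0.517 to 46.9 kb and a median of 9.29 kb between neighbouring summits. Their fold enrichment was modest: the lowest, median and highest were 2.46, 3.62 and 4.65 in replicate 1 and 2.56, 3.59 and 4.68 in replicate 2, and 13 of the 19 lay under the percentile of 50 among all shared regions. The solved background was high there, with medians of 7.64 and 8.41 fragments, against 3.93 and 4.25 in the whole set. The −log10 q reached 5 in both replicates at 12 of the 19. In the whole set 36.8% of the regions reached it, and over all shared regions 38.7%. The widest PVT1 regions reached over 1 kb in 3 cases, and the highest-ranked of all (chr8:127948858-127950243, 1386 bp) had 4.65 and 4.62. The 5 regions with summits from 117 to 129 kb from that end were all low, at 2.46 to 3.05 in replicate 1 and 2.56 to 3.14 in replicate 2. Replicate 2 was higher at 10 of the 19 and replicate 1 at the others, so neither library set the pattern.

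NCAL1 on chromosome 2 followed with 9 regions in 282 kb, of which 2 also lie in CYTOR and 2 in LOC101928214. Its lowest, median and highest values were 3.51, 3.89 and 5.98 in replicate 1 and 3.42, 3.94 and 5.53 in replicate 2. LOC102724701 on chromosome 21 held 7, 6 of which had from 3.12 to 5.39 in replicate 1 and from 2.77 to 5.70 in replicate 2, below the 7.97 and 7.68 of its strongest. LINC00673, a lncRNA near SOX9 studied in carcinomas, held 6 with 2.96 to 5.10 and 3.19 to 4.55. SCIRT on chromosome 6 also held 6, from 2.5 to 5.19 and from 2.34 to 4.36, in only 78.9 kb. MAP4K3-DT held 5, and LOC105373893 and CAVIN2-AS1, the highest-ranked of the 8 genes with 4, ranged from 3.42 to 5.25 and from 3.70 to 5.46 over both genes in replicates 1 and 2. By density among genes of at least 20 kb with 3 regions or more, FAM230H came first with 11.7 per 100 kb, then LOC105371912 on chromosome 17 with 9.78 and LOC105375771 on chromosome 8 with 9.11.

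**Figure D4:**
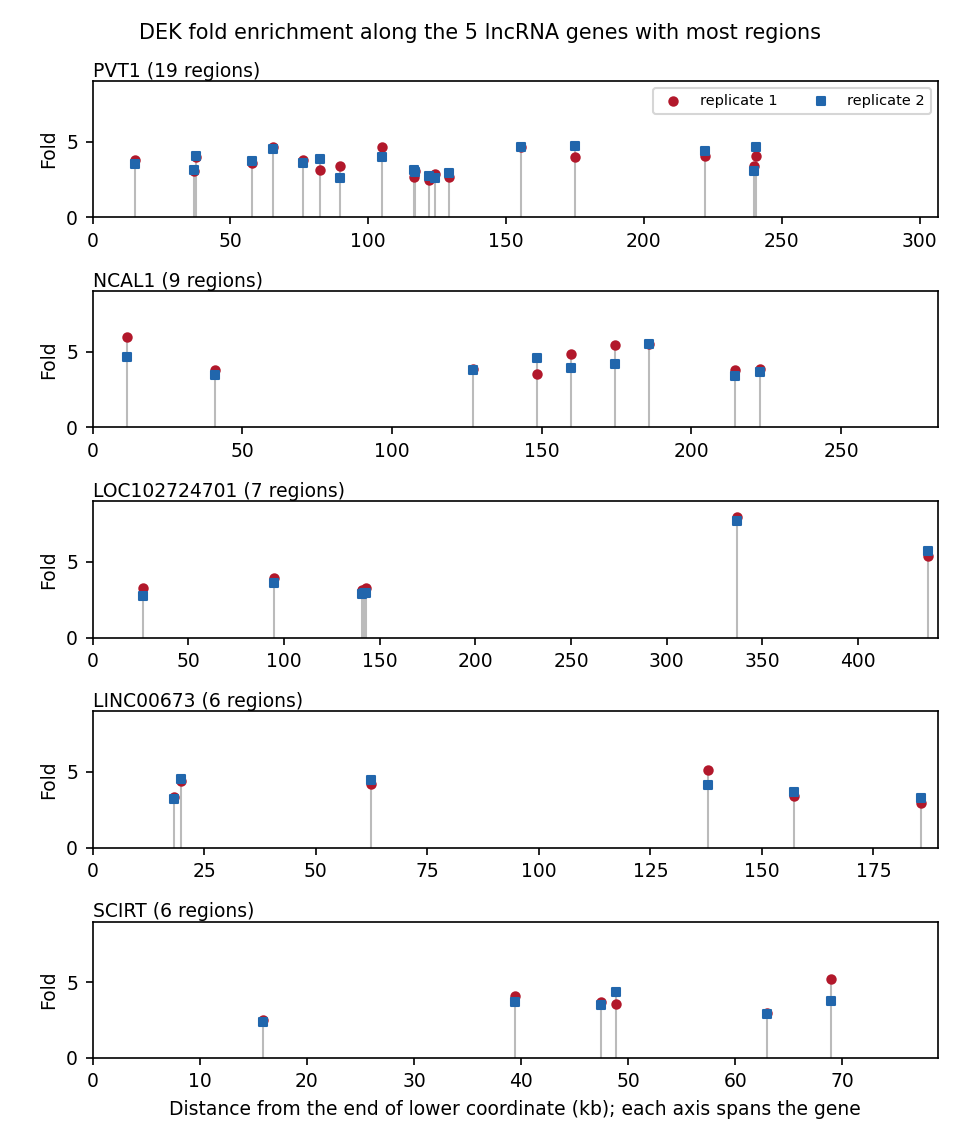
Fold enrichment (linear axis from 0) of each region in replicate 1 (red circles) and replicate 2 (blue squares) along PVT1, NCAL1, LOC102724701, LINC00673 and SCIRT, by distance in kb from the gene's end of lower coordinate. PVT1 shows 19 regions between 2.46 and 4.68, and 1 region of LOC102724701 reaches 7.97 and 7.68.

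Most lncRNA genes held no region. Of 17795 lncRNA genes on chromosomes 1 to 22, 13339 had sequence clear of protein-coding genes, and 863 of these (6.47%) held at least 1 region, 692 of them a single 1. At least 1 peak of either replicate met the rule in 1796 genes, and none did in 11543. Absence from a list shows only that no peak reached the caller's threshold with these libraries. The share of genes with a region was higher for longer genes: 1.85% (95% Wilson interval 1.47 to 2.32) of 3901 genes under 5 kb, 8.55% (7.50 to 9.72) of 2434 genes of 20 to 50 kb and 27% (22.5 to 32) of 333 genes of at least 200 kb. Per Mb of clear sequence the order was the opposite, with 7.82 regions in genes under 5 kb, 3.67 in genes of 20 to 50 kb and 1.71 in genes of at least 200 kb. Genes with a region had a median span of 35.5 kb, against 9.87 kb for the others.

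Summits, here those of replicate 1, lay throughout the genes. Where the strand was known, for 732 regions, the median distance from the nearest annotated start was 12.2 kb downstream, with quartiles of 2.75 and 40.3 kb. The start lay within 1 kb of 71 summits (9.70%) and within 10 kb of 310 (42.3%). With each gene cut into 5 equal parts from its 5′ end, 183, 149, 137, 126 and 137 summits fell in them. The 5′ end of the gene lay within 1 kb of 55 (7.51%, 95% Wilson interval 5.82 to 9.65) and the 3′ end of 48 (6.56%, 4.98 to 8.59), and these intervals overlap. Over all 1064 regions, 148 (13.9%, 12.0 to 16.1) had a summit within 1 kb of either end, with a median fold enrichment of 4.13 and 4.14 in replicates 1 and 2, the same as the 4.13 and 4.14 of those deeper in the gene. Of 7119 lncRNA start windows clear of protein-coding genes, 3 of which repeat the place and strand of another, 120 (1.69%) were touched by any shared region.

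**Figure D5:**
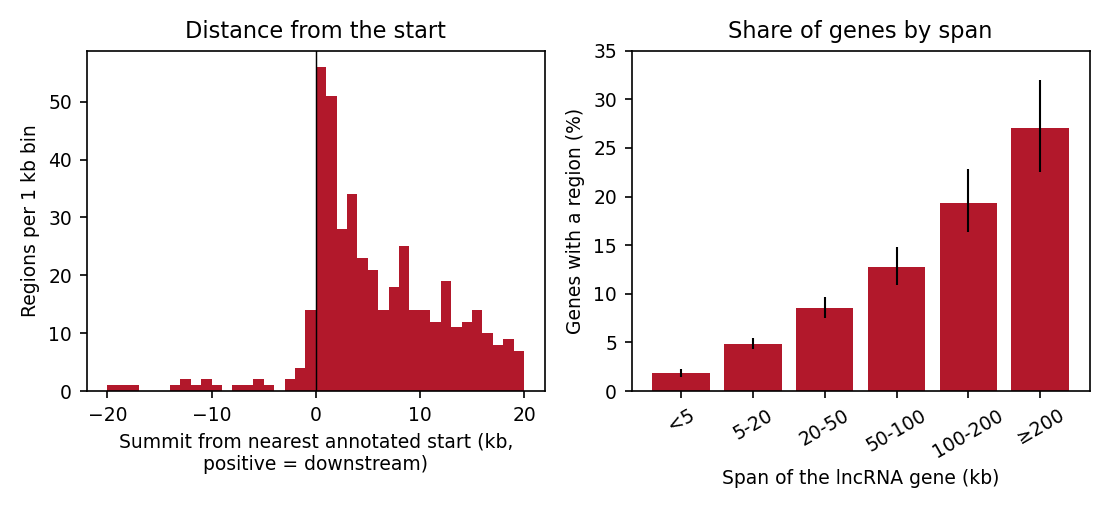
Left, regions per 1 kb bin by signed distance in kb of the replicate 1 summit from the nearest annotated start of its lncRNA gene, where the strand is known, within 20 kb. Right, percent of lncRNA genes with a region by gene span in kb, with 95% Wilson intervals, from 1.85% under 5 kb to 27% at 200 kb and above. Summits are mostly downstream because they lie inside the gene.

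The regions were also counted by the kind of name the gene carries. LOC genes held 562 and LINC genes 221, at 2.59 and 2.58 per Mb of clear sequence. Antisense genes, named for the gene on the opposite strand, held 123 (4.18 per Mb), and divergent transcripts, which start beside a protein-coding gene and run the other way, held 60 (3.89 per Mb). Genes with symbols of their own, PVT1 among them, held 115 (6.80 per Mb). Of these, 57 (49.6%) passed a −log10 q of 5 in both replicates, and 12 of the 57 were PVT1 regions. The share was 38.7% over all shared regions, 36.8% (207 of 562) in LOC genes and 30% (18 of 60) in divergent transcripts. Median fold enrichment in replicates 1 and 2 ran from 3.81 and 3.95 in divergent transcripts to 4.17 and 4.18 in LOC genes, among the classes with over 100 genes. The nearest protein-coding gene was a median of 48.5 kb from the summit, against 39.6 kb for shared regions outside both kinds of gene, and 110 regions (10.3%) lay within 5 kb of 1.

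Among the lists of lncRNA genes with known roles, that of the MYC locus and growth control had the highest share of genes with a region. Of its 22 genes with clear sequence, 8 held a region, and 19 of the list's 32 regions were in PVT1. The other 14 had no peak of either replicate in their clear sequence. On chromosome 8, where PVT1 lies, these were PCAT1, PCAT2, PRNCR1, CASC19, CCAT1, CCAT2, CASC11, LINC00824, LINC00977 and MINCR. CASC15, a neuroblastoma susceptibility locus, had 4, LINC-PINT, a p53-induced transcript, 3, DLEU1 3, CASC8 2, and DLEU2, CASC21 and MIR34AHG, the host of miR-34a, 1 each. The region of DLEU2 is also 1 of those of DLEU1, and that of CASC21 also 1 of those of CASC8, so the counts by gene sum to more than the 32 regions of the list. The highest of the list was in DLEU1, at the locus deleted in lymphocytic leukaemia, with 5.07 and 5.74 (5.40 ± 0.475; SD, n = 2). The list had a median span of 22.5 kb, against 9.87 kb for genes without a region, and a share of 36.4% is to be read against that span as well as against the 6.47% of all genes.

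Over all lncRNA genes with clear sequence the share was 6.47%. MicroRNA host genes had 16 of 79 (20.3%), with the highest ranks in MIR646HG (5.10 and 5.68), then the DLEU1 region given above, then MIR4435-2HG, whose 3 regions had up to 5.61 and 4.46. The list's median span was 22.5 kb, against 9.87 kb for genes without a region. The 72 genes with symbols that start with MIR and end in HG held 2.39 regions per Mb of clear sequence, against 3.04 over all lncRNA genes. Genes related to hypoxia and HIF had 3 of 15 (20%): CYTOR with 3 regions, of which the strongest had 5.98 and 4.65, VLDLR-AS1 with 2 (4.55 and 5.39 in the higher) and EGLN3-AS1, beside the gene of a HIF prolyl hydroxylase, with 1 (4.78 and 4.76). Genes reported in renal carcinoma had 5 of 20 (25%), of which PVT1, CYTOR and MIR155HG belong to other lists too. COMETT had 4.84 and 5.12 and the strongest of the 3 regions of LINC00973 had 4.4 and 5.25, with its summit 829 bp from an annotated start. Small nucleolar RNA host genes had 2 of 25 (8%), near the share of all genes: SNHG17 (4.96 and 4.64) and SNHG26 (3.10 and 4.83), which differed between replicates more than SNHG17.

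Imprinted lncRNA genes had 0 of 9, with no peak of either replicate in their sequence clear of protein-coding genes. So few genes cannot be read against the 6.47% of all. Nuclear architecture genes had 1 of 15 (6.67%), near the 6.47% of all, namely LINC-PINT, whose 3 regions had from 2.82 to 3.58 in replicate 1 and from 2.68 to 3.53 in replicate 2. In sequence clear of protein-coding genes, MALAT1 and NEAT1, the abundant RNAs of nuclear speckles and paraspeckles, had no peak in either replicate. Neither had NORAD, MEG3 or HOTAIR, of which 9.81 of 12.6 kb is clear. These 5 are named because they are well known. Among lncRNA genes known from other cell types, neural genes had 1 of 15 (6.67%), LHX1-DT with 2 regions, and immune genes 2 of 15 (13.3%), MIR181A1HG (3.77 and 4.42) and MIR155HG (3.27 and 3.97). Against the 6.47% of all lncRNA genes, the neural share was near that background, and the immune count is too small to be read. The lists' median spans ranged from 4.62 kb for imprinted genes to 47.8 kb for neural genes.

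Small RNA genes lay within 1 kb of the summit in 10 of the 1064 regions (0.940%), and in 119 of all 12456 shared regions (0.955%). MicroRNA hairpins were overlapped by 3 regions: MIR4435-1 inside NCAL1 (5.43 and 4.19 in replicates 1 and 2), its duplicate MIR4435-2 inside MIR4435-2HG (5.61 and 4.46), and MIR155 inside MIR155HG (3.27 and 3.97). The MIR4435 copies give the same mature microRNA, so reads from one may have been placed at the other, and both regions were higher in replicate 1. The mature sequences (RefSeq, GRCh38.p14) are printed 5′ to 3′ with the seed, bases 2 to 8, in capitals, and the 3 seeds differ.
hsa-miR-4435: aUGGCCAGagcucacacagagg
hsa-miR-155-5p: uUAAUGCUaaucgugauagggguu
hsa-miR-155-3p: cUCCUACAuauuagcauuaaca

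Others among the 10 were RNU6ATAC, a small nuclear RNA of the minor spliceosome, inside LOC124902297 (4.10 and 3.95), the vault RNA gene VTRNA1-2 inside LOC105378198 (4.56 and 4.10), the transfer RNA gene TRE-TTC2-1 inside LOC107984619 (3.74 and 4.49), MIR365A inside MIR193BHG (4.65 and 3.44) and SNORA71B inside SNHG17.

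Width and replicate differences mark the edges of the set. The median region was 425.5 bp wide, against 428 bp over all shared regions, and 34 (3.20%) reached 1 kb. The widest were in LINC00673 (1789 bp, 2.96 and 3.29), LOC124903876, 1.79 kb from ID3, a gene of a transcriptional inhibitor (1523 bp, 4.32 and 3.93), LOC112268408 on chromosome 18 (1495 bp, 4.52 and 4.86) and UBE2H-DT (1447 bp, 4.98 and 5.08). LOC112268408 had solved backgrounds of 33.7 and 36.6 fragments, several times the medians. The replicates differed most at LOC105372898 on chromosome 1, with 3.76 and 7.14, at LINC01589 (3.05 and 5.05), at LOC101929268 (3.48 and 5.72) and at LOC124902866 (5.21 and 3.18), with pileups of 16 and 35, 18 and 28, 13 and 23, and 17 and 11. LOC105372898 and LINC01589 have their summits 239 and 310 bp from an annotated start.

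By chromosome, the regions were most frequent per Mb of clear lncRNA sequence on chromosome 17 (57 regions, 8.91 per Mb), 22 (24, 6.37), 20 (36, 5.93) and 1 (134, 5.17), and least on chromosomes 4 (30, 1.08) and 14 (15, 1.08). Of the shared regions of chromosome 8, 17.0% were of this kind, the highest share of any chromosome, with PVT1 holding 19 of its 61, and of chromosome 19 only 2.79% were. Over all chromosomes there were 3.04 per Mb, against 2.97 for sequence outside both kinds of gene and 5.70 inside protein-coding genes. The flanks of protein-coding genes, up to 1 kb, held 23.1 per Mb, and the location rule keeps them out of the set. Assembly gaps were not left out of the sequence outside both kinds of gene, so 2.97 may be too low. At the edge of the location rule, the 73 shared regions in lncRNA genes with a summit up to 1 kb outside a protein-coding span had medians of 4.22 and 4.05, and the 37 members at 1 to 2 kb had 4.13 and 3.87. A further 479 lay in lncRNA genes that overlap a protein-coding span.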

How the data were processed

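Per the submitters' processing notes, the build was GRCh38 (hg38) and the tools, listed without roles, were MACS2 2.2.7.1, deepTools 3.5.1, ChIPseeker 1.32.1, cutadapt 1.18, DiffBind 3.6.5 and Bowtie2 2.2.5. The authors deposited 1 peak list per library (19128 and 24580 peaks, of which 18794 and 24144 lay on chromosomes 1 to 22), with a score, a fold enrichment (a linear ratio at the summit), −log10 p, −log10 q and the summit offset for each peak. The control library of the peak calling, if any: not given in the sources used here. Fold enrichment and q are the authors' own values, used to describe and rank peaks.

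Overlapping peaks were joined, and each region took its strongest peak per library. Pileup k and background b were solved from fold = (k + 1)/(b + 1) and the Poisson p, within a relative tolerance of 5e-05, for 99.995% and 99.996% of the peaks of replicates 1 and 2. The joining, placing and solving steps were tested on simulated data. Total depth is unknown. Wilson intervals (95%) cover counting error only. Genes came from a RefSeq table and starts, strands and sequences from RefSeq start windows, both GRCh38.p14. Exons and introns were not used here. Python 3.11.15, numpy 2.4.6, pandas 2.3.3, scipy 1.17.1, statsmodels 0.14.6 and biopython 1.88 were used.

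Named were the 15 highest-ranked regions, the 8 genes with most regions, the 3 densest, the 4 widest regions, the 4 with the largest gap between replicates, the top 3 of each list and, for sequence, the 6 highest at a start outside chromosome 8. Members, lists and motifs were chosen with earlier results of these data known. With 2 replicates of 1 group there was no contrast, and every result is a description without a test. Alternatives varied the summit, the distances, the overlap, the thresholds, the chromosomes, the gene symbols and the replicate.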

Additional observations from a re-analysis of the deposited data

Results flagged for a closer look

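Chromosome X was outside the set by its rule. It held 134 shared regions in data that the comparisons do not use, and 10 of these had a replicate 1 summit inside a lncRNA gene and clear of protein-coding genes. Adding them would make 1074 regions in place of 1064.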

How the results depend on the processing

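Counts were stable within 1.5 times for either choice of summit, for distances of 0 and 5 kb from protein-coding genes, for 50% reciprocal overlap and with chromosome X. Requiring −log10 q of at least 5 left 392 regions in 353 genes (median fold enrichment 4.66, replicate 1 peaks shared 61.8%). Requiring at least 5-fold left 81 regions in 78 genes (median 5.61, shared 37.9%, near an end 17.3%, and 100% with −log10 q of 5 in both). Without LOC symbols there were 535 regions in 379 genes (median 4.08, near an end 10.3%). Taking all peaks of 1 replicate gave 1631 to 2180 peaks in 1228 to 1506 genes, with medians of 3.92 to 4.03, 13.2% to 14.2% near an end and 36.6% to 39.4% with −log10 q of at least 5. With 50% reciprocal overlap the median was 4.19, the share of replicate 1 peaks that were shared 49.97% and the share with −log10 q of 5 in both 41.8%. The median was 4.12 with the replicate 2 summit and 4.15 at 5 kb, and 50.05% of replicate 2 peaks were shared. The share near an end was 16.4% at a distance of 0 and 30.6% with windows of 3 kb. The causes of these moves were not tested, apart from fewer peaks or genes being left. No paired analysis was possible because there is 1 group and no test. Low pileups limit each value, and a single fold enrichment has a wide counting error.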
